A study of Schizosaccharomyces pombe with 32 samples.

Results

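Glycerol enters central metabolism in fission yeast by a short oxidative route. Glycerol dehydrogenase turns it into dihydroxyacetone, dihydroxyacetone kinases then phosphorylate that compound, and the product joins glycolysis or gluconeogenesis as a triose phosphate. Glycerol is made from the same triose phosphate through glycerol-3-phosphate dehydrogenases and is known as the osmotic solute of this yeast. The 3 genes described here encode the steps of the breakdown route: gld1 (SPAC13F5.03C), the glycerol dehydrogenase, and dak1 (SPAC22A12.11) and dak2 (SPAC977.16C), the dihydroxyacetone kinases. They were chosen as the probes whose annotated gene was one of these names, which gave 3 of the 4819 genes on the array, with 1 probe each, and all were measured on all 32 arrays.

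The arrays were 2-colour spotted arrays with starved cells labelled in Cy5 and the strain's own growing cells in Cy3, so each value is a log2 ratio of polyA RNA of starved over growing cells. It is a difference from growth, not a level of the transcript. No array had the dyes swapped, so a dye bias of a gene would enter all its ratios alike. Cells of the strain labelled L972 were grown in the rich medium YES and moved to the minimal medium EMM2 without a nitrogen source. Cells of the strain labelled CRL672 were treated alike with 0.5 microg/ml of synthetic P-factor added, the peptide pheromone that M cells sense. In both conditions the medium changed together with the loss of nitrogen, so these cannot be told apart in a comparison with growth. Strain and pheromone changed together and cannot be told apart, and the genotypes behind both strain names are not used here. Cells were collected each hour from 1 to 8 h with 2 arrays for each hour and condition. By their array numbers, the arrays form 4 series of 8, replicate 1 and replicate 2 of either condition, numbered in accession order. A number pairs no series across conditions. Nothing states that the replicates came from separate cultures beyond a remark about repeated experiments, so the spread between them may be technical in part.

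Replicate arrays had Pearson correlations over genes of 0.84 to 0.943, where genes are not independent replicates. On the second principal component, which held 21% of the variance, the arrays without P-factor scored 8.2 to 34 in replicate 1 and -11.4 to 7.8 in replicate 2. The P-factor series scored -18.3 to -5.3. On the first component, with 32% of the variance, replicate 1 without P-factor (-15 to 24.1) lay within the range of either P-factor series. It reached lower than replicate 2 without P-factor (-6.4 to 31.2). The labelled starvation was visible in isp4, isp5, isp6 and ste11, 4 of 4 higher than in growth in both conditions. Of 4 pheromone response genes, 2 were higher with P-factor than without it on average over 1 to 8 h. They were rgs1 (2.11, adjusted p = 0.0248 in limma) and mam3 (2.61, 0.000105), while fus1 (0.35, 0.892) and mei3 (-0.20, 0.746) did not pass. Of the M-cell markers mfm1, mfm3, mam1 and mam2, 4 of 4 were higher in both conditions, and of the P-cell genes map3 was at -0.61 (adjusted p = 0.00531 in limma) without P-factor and -0.40 (0.0565) with it, while sxa1 was higher in both (0.41 and 0.69, adjusted p = 0.0246 and 0.000537). Depth does not apply to arrays, and the number of arrays limits the precision. No source used here states the log base of the values. Base 2 was taken by convention, and a natural logarithm would enlarge each fold below.

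The first question was how far the genes of the route differed from growth. All 3 were higher in starved cells in both conditions, in a comparison that also changed medium and dye. Averaged over 1 to 8 h without P-factor, dak2 was 6.37-fold higher (log2 difference 2.67 ± 0.39, SE of the limma model, 16 arrays, adjusted p = 2.87e-06). The other kinase gene, dak1, was 2.25-fold higher (1.17 ± 0.18, adjusted p = 5.46e-06) and the dehydrogenase gene gld1 was 2.23-fold higher (1.15 ± 0.22, adjusted p = 7.73e-05). With P-factor the differences were 2.63 ± 0.39 for dak2, 1.18 ± 0.18 for dak1 and 0.98 ± 0.22 for gld1 (adjusted p = 3.55e-06, 5.18e-06 and 0.000449 in limma). On simulated data this fit called more unchanged genes than its threshold allows in averaged comparisons, so these adjusted p-values may be too small. Being higher than in growth was common: 33.7% of the 4811 tested genes were called higher without P-factor and 33.9% with it. The value of dak2 exceeded that of 97.4% of genes without P-factor and 97.8% with it, and the values of dak1 and gld1 exceeded those of 85% to 88.3% of genes.

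**Figure D1:**
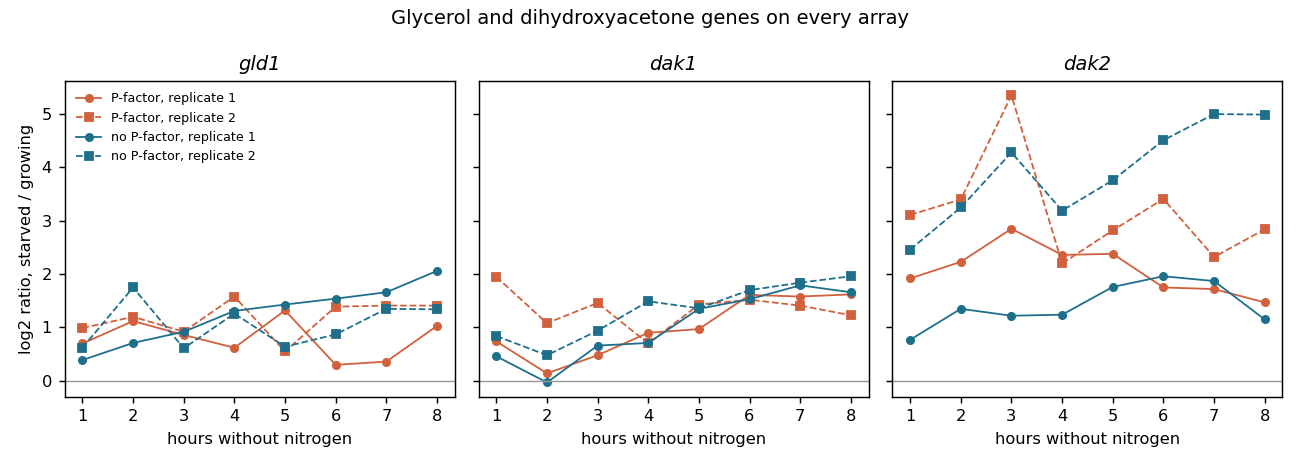
Log2 ratio of starved over growing cells (vertical axis) against hours without nitrogen (horizontal axis) for gld1, dak1 and dak2, with 1 point for each of the 32 arrays and 1 line for each array series (blue, no P-factor; orange, P-factor; solid, replicate 1; dashed, replicate 2). In dak2 the replicate 2 series without P-factor runs from 2.46 to 5.00, wholly above replicate 1 at 0.77 to 1.96, whereas the series of gld1 and dak1 overlap.

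The dehydrogenase gene gld1 came first in the route and was above growth on every array. Without P-factor its log2 ratios from 1 to 8 h were 0.39, 0.71, 0.92, 1.31, 1.43, 1.54, 1.66 and 2.06 in replicate 1. In replicate 2 they were 0.62, 1.75, 0.61, 1.26, 0.64, 0.87, 1.35 and 1.34. Replicate 1 thus climbed at each hour, while replicate 2 peaked at 2 h and dipped before its late values. With P-factor the ratios were 0.70, 1.12, 0.86, 0.62, 1.32, 0.30, 0.36 and 1.03 in replicate 1 and 0.99, 1.20, 0.92, 1.58, 0.55, 1.39, 1.41 and 1.41 in replicate 2. These series crossed several times and showed no common course. In the hourly tests gld1 was higher than in growth at 6 of 8 hours without P-factor and at 8 of 8 with it. The share of all genes called higher from 1 to 8 h was 26.4%, 27.8%, 27.3%, 27.4%, 25.5%, 25.9%, 26% and 27.1% without P-factor and 26.4%, 25.8%, 24.4%, 28.7%, 26.2%, 28.2%, 26.9% and 29.9% with it. With P-factor fewer hours of gld1 passed when either replicate of that condition was left out, which left 1 array at each hour. The average was then 1.18 without replicate 1 and 0.79 without replicate 2, and the latter was no longer called.

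The kinase gene dak1 started near the growth level and ended well above it without P-factor. Its ratios from 1 to 8 h were 0.46, -0.03, 0.66, 0.71, 1.35, 1.53, 1.79 and 1.66 in replicate 1. In replicate 2 they were 0.84, 0.48, 0.94, 1.49, 1.36, 1.70, 1.84 and 1.96. Both series had their lowest value at 2 h and lay above 1.5 from 6 h on. With P-factor the ratios were 0.74, 0.14, 0.48, 0.90, 0.97, 1.61, 1.58 and 1.62 in replicate 1 and 1.95, 1.08, 1.46, 0.70, 1.43, 1.52, 1.41 and 1.23 in replicate 2. The P-factor series met at the late hours and parted at 1 to 3 h, where replicate 2 was higher on every array. Of the hourly tests, dak1 passed as higher at 6 of 8 hours without P-factor and at 7 of 8 with it. At an hour 25.5% to 27.8% of all genes passed as higher without P-factor and 24.4% to 29.9% with it. At the hours it missed, its mean ratio was 0.65 (1 h) and 0.22 (2 h) without P-factor and 0.61 (2 h) with it.

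The second kinase gene, dak2, stood furthest above growth and differed most between the array series. Without P-factor its ratios from 1 to 8 h were 0.77, 1.35, 1.22, 1.24, 1.76, 1.96, 1.87 and 1.15 in replicate 1. In replicate 2 they were 2.46, 3.25, 4.28, 3.19, 3.76, 4.51, 5.00 and 4.99. No array of replicate 2 fell within the range of replicate 1. With P-factor the ratios were 1.92, 2.23, 2.85, 2.36, 2.38, 1.75, 1.72 and 1.47 in replicate 1 and 3.11, 3.40, 5.35, 2.20, 2.82, 3.41, 2.32 and 2.84 in replicate 2. In both P-factor series the highest value was at 3 h, and the later values of replicate 1 were the lowest of that series. All 8 hourly tests passed as higher in both conditions, where 25.5% to 27.8% of all genes did without P-factor and 24.4% to 29.9% with it. Fewer passed when replicate 2 of the condition tested was left out, which left 1 array at each hour. The averages were then 1.41 without P-factor and 2.08 with it. The 2 arrays of an hour lay 1.69 to 3.84 apart without P-factor and 0.16 to 2.50 apart with it. The SE of the model at an hour was 0.60.

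The gap between series was wider for dak2 than for gld1 and dak1. Averaged over the hours, replicate 2 minus replicate 1 was 2.52 for dak2 without P-factor (3.93 against 1.41), a gap larger in size than that of 99.7% of genes, and 1.10 with it (3.18 against 2.08). For dak1 the gaps were 0.31 and 0.34, and for gld1 -0.20 and 0.39. The correlation of dak2 within a series was 0.856 where the model used 0.354 for all genes. With its own correlation the averages of dak2 had an SE of 0.85 in place of 0.39, and the adjusted p was 0.0254 without P-factor and 0.0284 with it. The hourly tests of dak2 are given with the correlation of all genes only, so their SE may be too small.

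The next question was how the genes moved during starvation, measured as the late mean (6, 7 and 8 h) less the early mean (1, 2 and 3 h). Without P-factor all 3 members rose: dak1 by 1.19 ± 0.18 (2.29-fold, adjusted p = 1.72e-05 in limma), dak2 by 1.02 ± 0.39 (adjusted p = 0.0399) and gld1 by 0.64 ± 0.22 (adjusted p = 0.0232). Of all genes, 24% rose and 18.3% fell in that comparison, and 20.4% and 22.1% with the values as deposited. The rise of dak1 was alike in the array series, 1.30 in replicate 1 and 1.08 in replicate 2, and it exceeded the change of 97.5% of genes. The rise of dak2 was 0.55 and 1.50 and that of gld1 1.08 and 0.20 in the same order, so their series lay further apart than those of dak1. The call of dak2 was lost without replicate 2 (0.55, adjusted p = 0.438) and that of gld1 without replicate 1 (0.20, adjusted p = 0.714). Both were also lost with no block (adjusted p = 0.332 and 0.0614), and that of dak2 with the values as deposited (0.96, adjusted p = 0.0509).

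With P-factor the members went separate ways. The gene dak1 rose on average by 0.52 ± 0.18 (adjusted p = 0.019 in limma), where 33.7% of genes rose and 19.8% fell, or 23.4% and 30.8% with the values as deposited. That value joined a rise of 1.15 in replicate 1 with a change of -0.11 in replicate 2, and it was not called with the values as deposited (0.33, adjusted p = 0.127), with no block (adjusted p = 0.0606) or without replicate 1 of either condition or replicate 2 of the condition without P-factor. Over all genes the median of this change was 0.11 in the centred values and -0.08 as deposited. The change of dak2 was -0.89 ± 0.39 (adjusted p = 0.0606), with -0.69 in replicate 1 and -1.09 in replicate 2. With the array series as a fixed block, which takes out the gap between series, this decrease passed the threshold (-0.89 ± 0.28, adjusted p = 0.0107). That fit treats the hours within a series as independent once the gap is out, while each condition held only 2 series. The change of gld1 was 0.02 ± 0.22 (adjusted p = 0.951, 95% interval -0.44 to 0.47), with -0.33 and 0.37 in the series.

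A test of whether the 8 hours differed at all in a condition passed for dak1 without P-factor (limma F test, adjusted p = 0.002, where 25.9% of genes passed). It did not pass for dak1 with P-factor (adjusted p = 0.0965, where 42.1% of genes passed) or for dak2 (0.36 and 0.217) and gld1 (0.216 and 0.954). For dak1 without P-factor the pass was lost without either replicate series of that condition (adjusted p = 0.419 and 0.211), and with P-factor dak1 passed without replicate 2 (adjusted p = 0.0105).

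**Figure D2:**
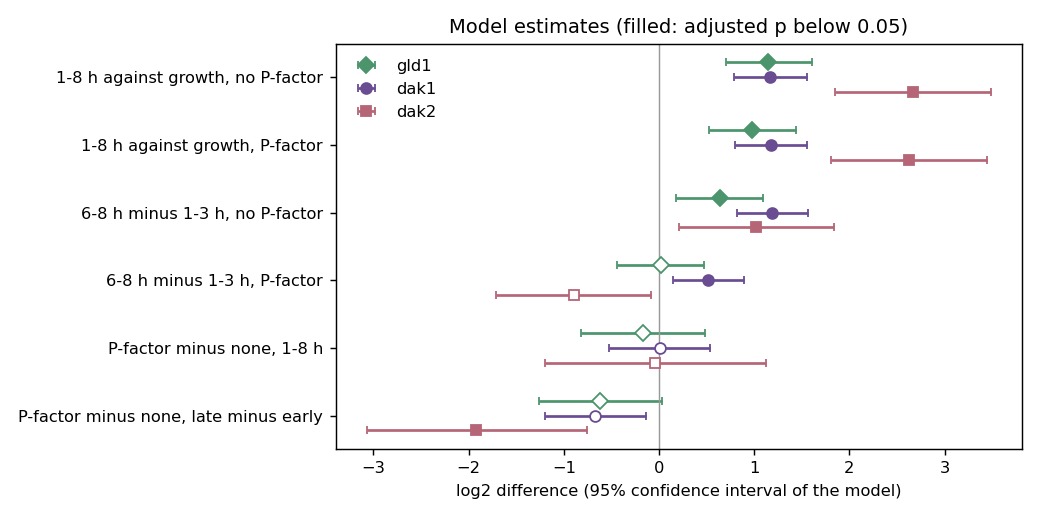
Log2 differences of gld1 (green), dak1 (purple) and dak2 (red) in 6 comparisons, with points at the limma estimates and bars for their 95% confidence intervals; filled points have an adjusted p below 0.05. All points of the 2 rows against growth lie between 0.98 and 2.67, and in the lowest row dak2 lies at -1.92.

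The last comparison set the P-factor condition against the condition without it. Averaged over 1 to 8 h, no member passed: the differences were 0.01 ± 0.26 for dak1, -0.04 ± 0.56 for dak2 and -0.17 ± 0.31 for gld1 (adjusted p = 0.998, 0.989 and 0.86 in limma, where 3.33% of genes were called). The 95% intervals ran from -0.53 to 0.54 for dak1, from -1.20 to 1.12 for dak2 and from -0.82 to 0.48 for gld1, so differences within these ranges remained possible. The interval of dak2 covers more than a doubling in either direction. With its own within-series correlation the SE of dak2 was 1.21 in place of 0.56. Its averaged difference was 1.22 (adjusted p = 0.0315) without replicate 2 of the condition without P-factor and -1.30 without replicate 1.

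At single hours 0 of 24 tests of the members passed in limma, and 0 of 24 had an unadjusted p below the same threshold, where the share of all genes that passed from 1 to 8 h was 0.166%, 0.0624%, 0.0208%, 0.104%, 0.998%, 4.36%, 7.19% and 8.9%. Without replicate 1 of the condition without P-factor, a test of dak2 passed in a fit with 1 array left at each hour of that condition. The arrays of both conditions overlapped at all 8 hours for dak2. For dak1 they overlapped at 6 of 8 hours, and both P-factor arrays lay below both others at 7 h (1.58 and 1.41 against 1.79 and 1.84) and 8 h (1.62 and 1.23 against 1.66 and 1.96). For gld1 they overlapped at 7 of 8 hours, and both P-factor arrays lay above at 1 h (0.70 and 0.99 against 0.39 and 0.62). How many other genes separate in this way was not counted. With 2 arrays against 2, separation is common without any difference, so these hours are a description only.

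**Figure D3:**
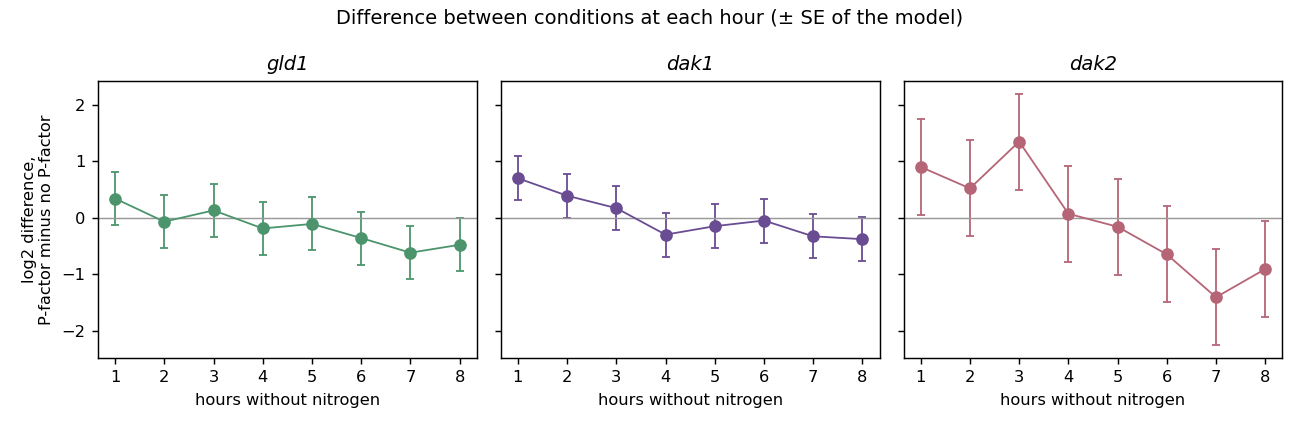
Log2 difference between conditions, P-factor less no P-factor (vertical axis), at each hour (horizontal axis) for gld1, dak1 and dak2, with bars for the SE of the limma model. The estimates of dak2 run from 0.90 at 1 h and 1.35 at 3 h to -1.41 at 7 h, and none of the 24 estimates passed its test. The bars of dak2 use the correlation of all genes and may be too short.

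The change over time, as opposed to the average, did differ between conditions for dak2. Its late minus early change was 1.92 lower on the log2 scale with P-factor than without it (-1.92 ± 0.56, adjusted p = 0.014 in limma, 95% interval -3.07 to -0.76), where 25.8% of genes were called and 10.2% were lower (14.4% lower and 11.4% higher as deposited). The value of dak2 was below that of all but 0.166% of genes. The change was upward in both series without P-factor (0.55 and 1.50) and downward in both with it (-0.69 and -1.09). The call was lost without replicate 2 of either condition (-1.44, adjusted p = 0.118, and -1.71, adjusted p = 0.081) and with no block (adjusted p = 0.255), and with the array series as a fixed block it was adjusted p = 0.00138. For dak1 the same difference was -0.67 ± 0.26 (adjusted p = 0.0557) and for gld1 -0.62 ± 0.31 (adjusted p = 0.152). The value of dak1 was -0.80 with the values as deposited, which passed (adjusted p = 0.0229), as it did without replicate 1 of the P-factor condition (-1.30, adjusted p = 0.000877), whereas without replicate 2 of that condition it was -0.04 (adjusted p = 0.919). The value of gld1 ranged from -1.06 to -0.18 when 1 series was left out.

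The neighbours of dak2 were read beside it because the gap between its series was large. It lies on chromosome I next to SPAC977.17, a gene of the family of water and glycerol channels, and in assembly ASM294v3 the annotated spans of both genes overlap. Probe positions are not used here, so a signal shared through the overlap and separate signals cannot be told apart. Without P-factor SPAC977.17 was 6.49-fold above growth (2.70 ± 0.31, adjusted p = 7.15e-08 in limma) and with it 4.86-fold (2.28 ± 0.31, adjusted p = 9.3e-07). Its replicate 2 minus replicate 1 gap was 1.74 without P-factor (3.57 against 1.83) and 0.76 with it (2.66 against 1.90). Its late minus early changes of 0.84 (adjusted p = 0.0337, lost without either replicate of that condition and with no block) and -0.25 (adjusted p = 0.518) joined 0.88 and 0.79 in the series without P-factor, and 0.34 and -0.84 with it, where dak2 fell in both.

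The remaining measured neighbours did not share that height. On the other side of dak2, SPAC977.15 was at -0.45 ± 0.20 and -0.89 ± 0.20 without and with P-factor, SPAC977.14C at 0.92 ± 0.23 and 0.65 ± 0.23, and SPAC977.12 at -2.35 ± 0.15 and -2.81 ± 0.15. Past SPAC977.17, SPAPJ695.01C was at 0.89 ± 0.16 and 1.21 ± 0.16. Of these, SPAC977.14C had gaps between series of 1.18 and 1.13, and the gaps of the others lay between -0.69 and 0.45. SPAC977.12 shared the directions of dak2 over time, with late minus early changes of 0.47 and 0.19 without P-factor and -0.48 and -0.47 with it. The difference between conditions in that change was -0.80 ± 0.21 for SPAC977.12 (adjusted p = 0.00734 in limma) and -1.08 ± 0.44 for SPAC977.17 (0.0723). It was 0.13 for SPAC977.14C, -0.02 for SPAC977.15 and -0.11 for SPAPJ695.01C, none of them called. SPAPJ695.02, the neighbour between, was not measured under that name. All 6 neighbours of gld1 were measured and none of their spans overlap it. Of the neighbours of dak1, rrp40, a gene of the exosome, overlaps it in the annotation, and its late minus early changes in replicate 1 and 2 were -0.27 and -0.58 without P-factor, where dak1 rose, and 0.48 and 0.59 with P-factor, where dak1 changed by 1.15 and -0.11.

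**Figure D4:**
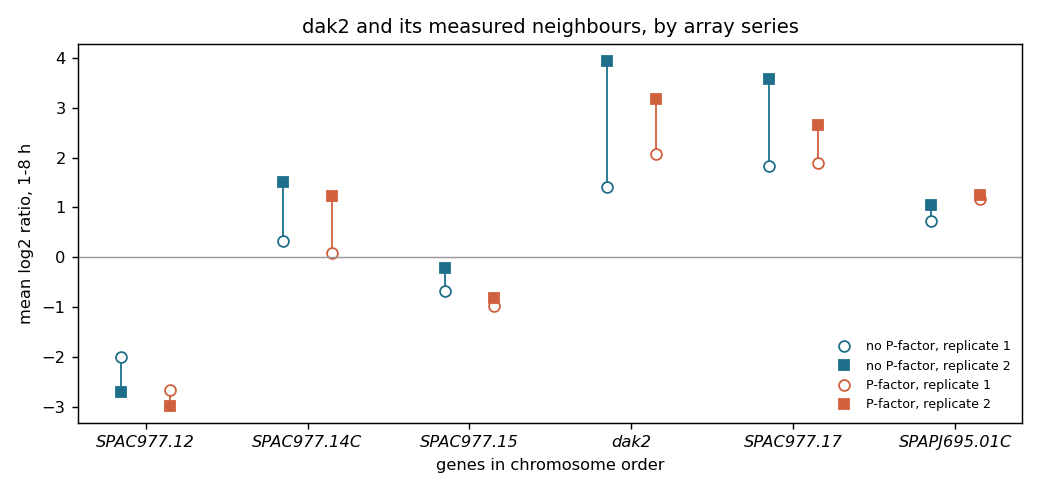
Mean log2 ratio over 1 to 8 h (vertical axis) in each array series for dak2 and its measured neighbours in chromosome order (horizontal axis), open circles for replicate 1 and filled squares for replicate 2, blue without and orange with P-factor. The longest lines, which join the replicates, belong to dak2 and SPAC977.17 without P-factor, at 1.41 to 3.93 and 1.83 to 3.57.

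Other genes that handle glycerol phosphate and triose phosphates moved in both directions. The list had 9 genes besides the members, all measured. Averaged over 1 to 8 h, 5 were higher and 2 lower without P-factor (median 0.58, where the median of all genes was 0.00, and 33.7% of genes were higher and 35.3% lower). With P-factor 4 were higher and 3 lower (median 0.18, with 33.9% of genes higher and 32.8% lower). Fewer of the 9 were higher with either P-factor series left out, which left 1 array at each hour of that condition. Fewer of all genes were called in either direction in those fits as well.

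The genes for making glycerol phosphate fell over time. The osmotic stress gene gpd1, a glycerol-3-phosphate dehydrogenase, was at 0.77 ± 0.26 without P-factor (adjusted p = 0.0104) and at 0.18 ± 0.26 with it (adjusted p = 0.555) on average, and its late minus early change was -0.93 ± 0.26 and -1.45 ± 0.26 (adjusted p = 0.00527 and 5.76e-05 in limma). Without replicate 2 of the condition without P-factor the first was -0.47 and not called (adjusted p = 0.433), and without replicate 1 it was -1.39. The second was -2.01 and -0.89 without P-factor replicates 1 and 2. Without P-factor its arrays read 0.66 and 1.26 at 1 h, 1.54 and 2.59 at 2 h and 0.27 and 0.63 at 8 h. The gpd1 ratio was thus highest at 2 h in both series and lower by 8 h, where the ratios of dak1 were near their highest. The related gene gpd2 was lower than in growth in both conditions (-0.95 ± 0.15 and -0.53 ± 0.15, adjusted p = 1.08e-05 and 0.00424) and fell further by 0.73 and 0.70, the latter not called without P-factor replicate 1 (-0.41, adjusted p = 0.0893). The gene gut2, for the mitochondrial enzyme that takes glycerol phosphate back to triose phosphate, was at 0.17 ± 0.22 without P-factor (adjusted p = 0.495) and at -0.52 ± 0.22 with it (adjusted p = 0.0393).

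Among the genes that receive the triose phosphate, the isomerase gene tpi1 was lower in both conditions (-0.54 ± 0.14 and -0.70 ± 0.14, adjusted p = 0.00128 and 9.5e-05 in limma). The glyceraldehyde-3-phosphate dehydrogenase genes tdh1 and gpd3 were higher (0.58 and 0.63 without P-factor, 0.48 and 0.49 with it), but they are near-identical copies whose signals a spotted probe may share. The aldolase gene fba1 was at 0.24 and 0.12 and passed in neither condition. The gene fbp1, for the fructose bisphosphatase of gluconeogenesis, was higher (0.93 ± 0.30 and 1.15 ± 0.30, adjusted p = 0.00989 and 0.00211). Over time without P-factor 4 of the 9 genes rose and 2 fell (24% and 18.3% of all genes). The number that rose was 1 with the values as deposited, where 20.4% of all genes rose. It was 0 with no block, where 1390 of all genes were called in either direction, against 2034 in the main fit. It was also lower when any 1 series was left out. Fewer of all genes were called then too, slightly fewer without a P-factor series and far fewer without a series of the condition tested. With P-factor 0 rose and 2 fell (33.7% and 19.8% of all genes), and 4 fell with the values as deposited, where 30.8% of all genes did. More fell without P-factor replicate 2 and fewer without P-factor replicate 1. In both of those fits fewer of all genes were called in either direction. Between conditions 0 of 9 passed for the average in limma, where 3.33% of genes did. With no block 3 passed, where 1457 of the 4811 tested genes did. For the change over time 1 passed, where 25.8% of genes did: tpi1, at -0.57 ± 0.19 (adjusted p = 0.0305). Its call was lost with no block and without replicate 1 of either condition or replicate 2 of the condition without P-factor. With the values as deposited 3 of the 9 genes passed as lower, where 14.4% of all genes did.

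**Figure D5:**
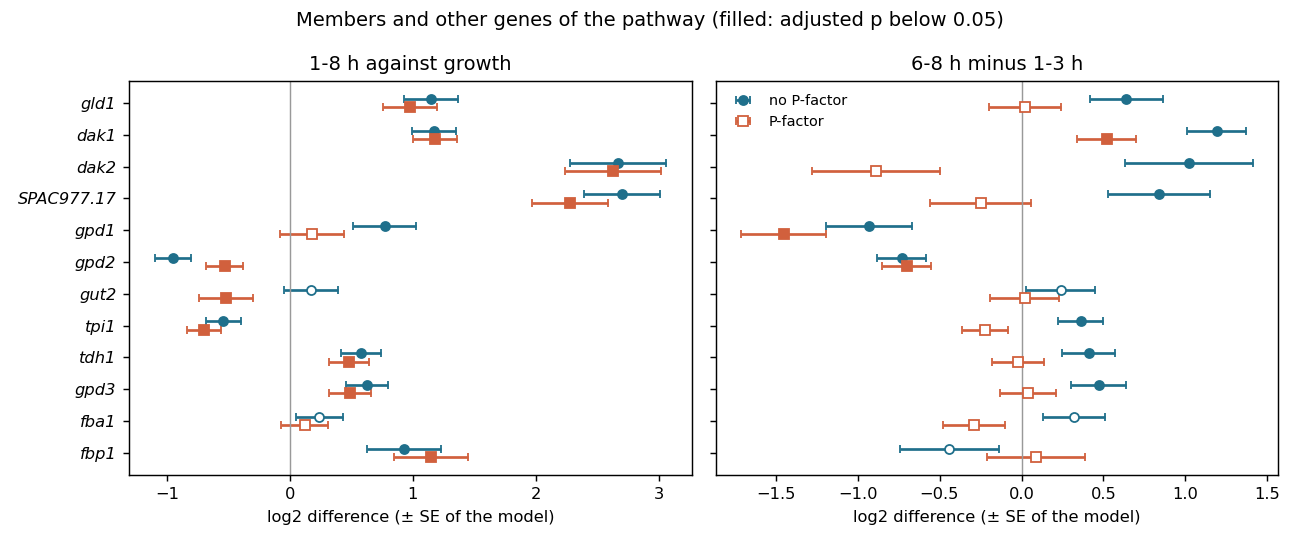
Log2 differences of the members (top 3 rows) and 9 other genes of glycerol and triose phosphate metabolism, against growth (left) and late minus early (right), blue circles without and orange squares with P-factor, with bars for the SE of the limma model; filled points have an adjusted p below 0.05. On the left gld1, dak1 and dak2 lie right of 0 and gpd2 and tpi1 left of it in both conditions, and on the right gpd1 and gpd2 lie left of 0 in both.

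Genes that act upstream or that share known regulation with glycerol breakdown were read as lists, beside the 33.7% of all genes that were higher and 35.3% lower without P-factor and the 33.9% and 32.8% with it. Of 11 regulators of glucose repression and stress signalling, 7 were higher and 0 lower without P-factor (median 0.76) and 6 higher and 1 lower with it (median 1.01). They were led by atf1, the stress transcription factor, at 2.20 ± 0.16 without P-factor and 1.60 ± 0.16 with it, pka1, the catalytic subunit of protein kinase A, at 2.17 and 1.87, its regulatory subunit gene cgs1 at 1.48 and 1.38, and rst2, an activator of glucose-repressed genes, at 1.43 and 1.41. Of 7 measured glucose-repressed genes, 4 were higher without P-factor and 3 with it (medians 0.69 and 0.63), among them the maltase gene mal1 at 1.08 and 1.24 and the transporter gene ght4 at 0.68 and 1.22. Of 13 stress genes, 11 were higher and 1 lower without P-factor (median 2.22), and 10 higher and 2 lower with it (median 1.58). The median of the stress list was thus above the averages of gld1 and dak1 in both conditions and below those of dak2. Without P-factor the mean of dak2 was 1.41 in replicate 1, below the median of 2.22, and 3.93 in replicate 2. The trehalase gene ntp1, at 2.79 ± 0.32 and 2.14 ± 0.32, was close to the averages of dak2, but its series without P-factor, at 2.94 and 2.63, lay nearer each other.

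Correlations between the members were low to moderate. Over the 32 arrays the Pearson correlation was 0.38 between dak1 and dak2, 0.194 between dak1 and gld1 and 0.031 between dak2 and gld1, given as a description since all genes share the arrays. The genes most like dak2 among 4409 measured on every array were mae2, a malic enzyme gene (0.875), its neighbour SPAC977.17 (0.857), SPAC750.08C (0.82), SPCC594.02C (0.807) and the fatty acid desaturase gene ole1 (0.798). With the mean of each array series removed these fell to 0.741, 0.664, 0.644, 0.431 and 0.553. For dak1 the most alike were per1 (0.788), SPBC21.03C (0.754), the ribosome assembly gene noc1 (0.739), rpp203 (0.735) and nar1 (0.728), with 0.724 to 0.799 after removal of the series means. For gld1 the highest values were lower, with rrp17 at 0.641, msc1 at 0.64, the mRNA export gene mex67 at 0.614, the cullin gene cul1 at 0.605 and hsp3105 at 0.595.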

How the data were processed

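The authors deposited 1 value for each of 5188 probes and 32 arrays, taken as log2 ratios of Cy5 over Cy3, which the labels' dyes make starved over growing cells. Background correction and normalization are not given in the sources used here. By the array's gene annotation, 4868 probes matched 1 gene, 22 several and 298 none. Probes of a gene were averaged, and each array was centred on the median of its genes and remaining probes (-0.154 to 0.091). Genes measured on at least 24 arrays were tested, 4811 in all.

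The main model had 1 mean per group (16 groups) in limma 3.58.1 (R 4.3.3), with the array series as a random block (consensus correlation 0.354) and eBayes (16 residual and 6.32 prior degrees of freedom). Tests were two-sided, with Benjamini-Hochberg adjustment over all genes of a comparison and a threshold of 0.05. The fit was tested on simulated data, in which the averaged comparisons called more unchanged genes than the threshold allows. The members, gene lists, comparisons and naming rule were chosen with earlier results of these data known. The rule named the members, all genes of the pathway list, up to 4 called genes of each other list, the 3 nearest protein-coding genes on either side and the 5 most correlated genes. Alternatives were the deposited values without centring, scaled arrays, other blocks, moderation and filters, and leaving out each series. Sequences of the members are not used here.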

Additional observations from a re-analysis of the deposited data

Results flagged for a closer look

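The late minus early change of dak2 differed between the conditions by a test of the difference itself. With P-factor it was lower by -1.92 ± 0.56 on the log2 scale (limma, adjusted p = 0.014). The change was upward in both array series without P-factor (0.55 and 1.50) and downward in both with it (-0.69 and -1.09). The call was lost without replicate 2 of either condition (adjusted p = 0.118 without that of the condition without P-factor and 0.081 without that of the P-factor condition) and with no block (0.255). In replicate 2 without P-factor dak2 stood 2.52 above replicate 1. With the array series as a fixed block, which takes out that gap, the difference was -1.92 ± 0.4 (limma, adjusted p = 0.00138). That fit treats the hours within a series as independent once the gap is out, while each condition held only 2 series. The cause of the gap was not tested. A neighbour of dak2, SPAC977.12, also rose in both series without P-factor (0.47 and 0.19) and fell in both with it (-0.48 and -0.47).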

How the results depend on the processing

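Under 12 alternatives, 177 of 207 values of the members kept their direction and their side of the threshold; 10 changed sign, all of them from uncalled values except dak1 late minus early with P-factor. As deposited, without centring, dak2 late minus early was 0.96 (adjusted p = 0.0509) without P-factor and -1.08 with it (adjusted p = 0.0229), dak1 was 0.33 and gld1 -0.17 with P-factor, and the differences between conditions were 0 for the average of dak1 and -0.8 for its late minus early change. With scaled arrays the averaged difference of dak2 was 0.06. With no block, late minus early without P-factor was 1.02 for dak2 (adjusted p = 0.332) and 0.64 for gld1 (0.0614), dak1 with P-factor 0.52 (0.0606), and the difference of dak2 -1.92 (0.255). Genes called between conditions then numbered 1457 for the average and 683 for late minus early, against 160 and 1241. The array series as a fixed replicate block made dak2 late minus early with P-factor a call (-0.89, adjusted p = 0.0107), as did its own within-series correlation, added after seeing the data (-0.89, 0.0102), and changed no other call of a member. Without 1 series at a time, where the remaining series of a condition is assumed to vary like the others, gld1 against growth with P-factor ranged from 0.79 to 1.18. Late minus early ranged from 0.55 to 1.5 for dak2 and from 0.2 to 1.08 for gld1 without P-factor, and from -0.11 to 1.15 for dak1, from -1.09 to -0.69 for dak2 and from -0.33 to 0.37 for gld1 with it. The averaged difference between conditions ranged from -0.17 to 0.18 for dak1, from -1.3 to 1.22 for dak2 and from -0.37 to 0.03 for gld1, and the difference of late minus early from -1.3 to -0.04 for dak1, from -2.39 to -1.44 for dak2 and from -1.06 to -0.18 for gld1. Genes called ranged from 1024 to 2018 for late minus early without P-factor, from 20 to 1195 for the averaged difference and from 562 to 967 for the difference of late minus early. The cause of these changes was not tested.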
